A study of Homo sapiens with 4 samples.

Results

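The sites described here are autosomal cytosines that drew far more reads than the rest of a targeted bisulfite sequencing experiment. They were chosen by coverage alone: at least 10 reads in each of 4 libraries and a mean over the 4 libraries above 100 reads. Of 396398 autosomal cytosines with at least 10 reads in every library, 9632 met the rule, which is 2.43%. Methylation levels were not used to choose them. H9 is an established line of human embryonic stem cells, and each group had 1 library. The wild type (WT) primed and the B3GALT5-/- (KO) primed cells were grown in basal medium. The WT naive cells were in 5iLAF medium and the KO naive cells in 2iLAF medium. The naive groups therefore differ in genotype and in medium, and these cannot be told apart. B3GALT5 encodes a galactosyltransferase of cell-surface glycolipids. The labels do not say whether the KO line is 1 clone. DNA was enriched with a capture kit for regulatory regions, and the level of a cytosine is its methylated reads over all reads in its sequence context, in percent.

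In bisulfite sequencing, unmethylated cytosines are converted and read as thymine, while methylated ones stay cytosine. Much of the human genome is repeated: ribosomal RNA gene arrays, transfer RNA gene clusters, satellites near centromeres, segmental duplications, and nuclear copies of mitochondrial DNA. Where a reference holds fewer copies than the cell, reads of several copies can be placed on 1 position, and its level is then an average over copies. Primed human embryonic stem cells carry high CpG methylation over most of the genome, and naive cells of these media are known for much lower levels. The label of these sites as likely repeated sequence was checked only through their positions, spacing and neighbours, since a genome of the build of the tables was not used here.

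Promoter sequence was tied to these sites through the pattern of CpG spacing. The RefSeq promoters of 33725 genes, each reaching from 250 bases before to 50 bases after the transcript start in GRCh38.p14, were compared with the listed CpG positions of the same chromosome in hg19. A promoter was placed where at least 10 CpGs were listed, at least 75% of its CpGs were listed, no listed CpG in the window fell elsewhere, and at least 4 CpGs held a high-coverage site. This gave 16 placements of 14 promoters with 195 high-coverage sites, and in 9 placements every CpG of the promoter was listed. The match does not see bases other than CpGs, so a near-identical copy would be placed as well. The sequences below are those that the later results return to: a tandem array, a pair of near-identical copies, a promoter with one of the largest differences between states, and a CpG-rich promoter of low level. They run 5′ to 3′ on the strand of the gene, and capitals mark CpGs that hold a high-coverage site.
LINC01596: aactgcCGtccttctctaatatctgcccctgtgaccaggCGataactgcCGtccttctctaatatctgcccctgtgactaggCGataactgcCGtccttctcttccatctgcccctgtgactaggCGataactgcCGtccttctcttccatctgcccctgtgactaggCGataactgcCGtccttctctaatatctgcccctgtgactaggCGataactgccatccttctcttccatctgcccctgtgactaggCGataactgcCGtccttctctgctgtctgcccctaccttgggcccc
LOC401357: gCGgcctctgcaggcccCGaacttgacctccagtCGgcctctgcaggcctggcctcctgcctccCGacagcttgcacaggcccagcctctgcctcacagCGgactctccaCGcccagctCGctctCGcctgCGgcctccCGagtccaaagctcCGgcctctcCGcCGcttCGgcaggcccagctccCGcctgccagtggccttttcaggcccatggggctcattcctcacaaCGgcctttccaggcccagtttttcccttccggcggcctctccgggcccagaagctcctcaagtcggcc
LOC124901652: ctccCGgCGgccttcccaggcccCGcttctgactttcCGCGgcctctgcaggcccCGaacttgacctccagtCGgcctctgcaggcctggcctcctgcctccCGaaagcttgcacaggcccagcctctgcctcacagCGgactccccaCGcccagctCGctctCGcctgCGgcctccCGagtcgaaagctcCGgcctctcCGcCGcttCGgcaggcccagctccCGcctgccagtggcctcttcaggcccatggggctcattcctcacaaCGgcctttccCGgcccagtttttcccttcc
LINC00910: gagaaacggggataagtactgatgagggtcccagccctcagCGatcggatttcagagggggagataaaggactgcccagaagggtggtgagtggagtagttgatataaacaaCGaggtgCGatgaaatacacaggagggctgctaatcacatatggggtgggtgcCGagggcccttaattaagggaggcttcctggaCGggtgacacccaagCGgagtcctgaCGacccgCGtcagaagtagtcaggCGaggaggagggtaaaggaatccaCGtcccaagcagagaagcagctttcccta
MIR663AHG: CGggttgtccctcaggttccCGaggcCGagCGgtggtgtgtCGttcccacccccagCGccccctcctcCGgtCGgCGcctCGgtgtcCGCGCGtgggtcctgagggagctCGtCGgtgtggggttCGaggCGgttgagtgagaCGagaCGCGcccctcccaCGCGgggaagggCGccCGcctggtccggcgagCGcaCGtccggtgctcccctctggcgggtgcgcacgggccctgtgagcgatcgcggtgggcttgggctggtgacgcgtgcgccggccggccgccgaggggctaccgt
In GRCh38.p14 these lie at chr4:189881265-189881564 (plus strand), chr7:56812687-56812986 (minus strand), chr7:63760219-63760518 (plus strand), chr17:43388849-43389148 (minus strand) and chr20:26209184-26209483 (minus strand). All 5 belong to genes for long noncoding RNAs or to uncharacterised loci. The LINC01596 promoter is itself a tandem repeat: shifted by 43 bases it matched itself at 90.3% of positions, the highest value of the 14 placed promoters. The LOC401357 and LOC124901652 promoters were 98.1% identical over 262 bases without gaps, although they lie at separate places on chromosome 7. The LOC401357 promoter was placed at 2 positions in 1 cluster. The LINC00910 promoter had all 13 of its CpGs listed and MIR663AHG had 33 of 43, and their best shifted matches were 33.2% and 40.2%.

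Coverage chose the sites and is described without a test. A high-coverage site had a median of 145 reads in WT primed, 167 in KO primed, 132 in WT naive and 204 in KO naive. The median of the cytosines at 10 to 100 reads was 18, 19, 18 and 28 in the same order. The 2.43% of sites took 27.5% of the reads of the measured cytosines in WT primed, 28.4% in KO primed, 23.04% in WT naive and 22.6% in KO naive. Their share of reads was thus lower in both naive libraries. With 18 clusters described further on left out of both the sites and the total, the remaining sites took 22.3%, 23.2%, 22.1% and 21.3%. The share was then nearly equal in the WT libraries and still lower in KO naive than in KO primed. Of the 9632 sites, 6029 had a mean of 100 to 200 reads, 2533 had 200 to 500, 621 had 500 to 1000 and 449 had over 1000. Nearest inside the threshold were 30 cytosines at 100.25 reads on 13 chromosomes, and nearest outside it 39 at 100 reads on 14. Of these, the first 3 by position inside ranged from 13.1 to 65.2% in WT primed and the first 3 outside from 30.2 to 90.3%, so levels on the 2 sides overlapped.

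The sites were unevenly spread over the genome. Chromosome 1 held the most, 1534 sites or 4.27% of its measured cytosines. Chromosome 21 had the highest share at 4.89%, followed by chromosome 9 at 4.68%, chromosome 1, and chromosome 4 at 3.95%. Chromosome 13 had the lowest share, 1.03%, with 103 sites. Within 5 Mb of the largest interval without listed cytosines on each chromosome, which in hg19 lies at the centromere or covers a short arm, were 2475 of the high-coverage sites (25.7%), against 9.11% of the cytosines at 10 to 100 reads. The share was 24.1% among the cytosines at 50 to 100 reads, so it was not particular to sites above 100 reads. Chromosome ends held no such excess: 11.3% of the high-coverage sites and 12.8% of the others lay within 2 Mb of the outermost listed cytosine. The share by chromosome is plotted with the autosomal value of 2.43%.

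**Figure D1:**
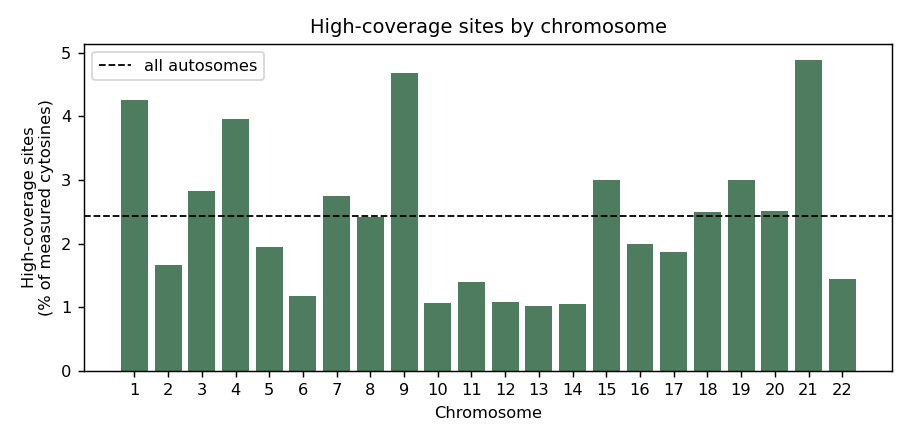
Bars give the high-coverage sites as a percentage of the measured cytosines of each autosome, and the dashed line gives the share over all autosomes. Chromosomes 21, 9 and 1 stand above 4% and chromosome 13 has the lowest bar at 1.03%.

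The sites lay in tight groups. Joining sites with neighbours at most 10 kb apart gave 1078 clusters, of which 246 were single sites. The 229 clusters of at least 10 sites held 6885 sites (71.5%), and their median span was 301 bp. Of these 229 clusters, 64 lay within 5 Mb of the large interval and 29 within 2 Mb of an end. CpGs were dense around the sites: the median number of listed CpGs within 250 bp was 19, against 8 for the cytosines at 10 to 100 reads. It was 14 for those at 50 to 100 reads. The listed strand differed as well. The minus strand held 56.4% of the high-coverage sites and 82.4% of the others, but 60.3% of the cytosines at 50 to 100 reads. Coverage of both strands was thus more common where reads were many, and not only above 100 reads.

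The 10 clusters with the most sites held 1576 sites, 16.4% of all. The largest lay on chromosome 3 at 75707805 to 75719240, with 235 sites and a mean of 1286 reads. Its mean level was 52.6 ± 16.1% (SD over its sites) in WT primed, 51.9 ± 16.6% in KO primed, 35.1 ± 11.4% in WT naive and 36.6 ± 11.8% in KO naive. The second lay on chromosome 4 at 132644488 to 132671959 with 233 sites, and stood at 87.6%, 87.0%, 75.8% and 76.1% in the same library order. The third, on chromosome 19 at 37764228 to 37784853 with 221 sites, had nearly the same values, 86.7%, 86.3%, 74.8% and 75.4%. So 2 of the 3 largest clusters stayed above 70% in the naive libraries, while the largest stood near 36%.

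Several of the largest clusters lie where tandem gene arrays are known, from general knowledge of the genome and not from an annotation of these tables. The cluster on chromosome 1 at 228756482 to 228772164 lies in the 5S ribosomal RNA gene array of the long arm. RefSeq lists 17 RNA5S genes on chromosome 1. It held 213 sites, 99.1% of them on the minus strand. Between 1000 and 5000 bp, pairs of its sites on the same strand were most often 2240 bp apart: 20 pairs had that distance, against 13 at the next most frequent and a median of 2. Outside that range, 20 pairs each were also 103 and 134 bp apart and 19 were 13423 bp apart. Its levels were 51.1 ± 20.4% in WT primed, 53.4 ± 20.2% in KO primed, 39.5 ± 13.6% in WT naive and 40.4 ± 15.3% in KO naive. Of its sites, 88.3% were lower in WT naive than in WT primed, and 95.8% were lower in KO naive than in KO primed. The cluster on chromosome 1 at 161412574 to 161429024, with 139 sites, lies among transfer RNA genes and stood at 60.2%, 61.6%, 41.9% and 44.9%. On chromosome 8 at 86556126 to 86573858, in the REXO1L array of exonuclease-like genes, 123 sites stood at 88.7%, 89.4%, 72.9% and 73.7%. Near the end of the long arm of chromosome 4, at 190987940 to 190989923, 94 sites, all on the minus strand, stood at 72.9%, 72.1%, 47.2% and 51.7%. That arm ends in the D4Z4 array, which holds copies of the DUX4 gene. On chromosome 4 at 9245374 to 9250586, where the USP17L deubiquitinase genes form an array, 10 same-strand pairs were 4751 bp apart against 6 at the next distance.

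Several other large clusters had primed levels above 80%. On chromosome 7 at 56439327 to 56442833, 113 sites stood at 81.6%, 81.6%, 59.8% and 63.7%, and 11 same-strand pairs were 1673 bp apart against 9 at the next distance between 1000 and 5000 bp. On chromosome 15 at 102292459 to 102322485, next to the chromosome end, 110 sites stood at 83.4%, 83.5%, 55.8% and 61.7%. On chromosome 19 at 36759646 to 36768275, 95 sites stood at 87.0%, 87.4%, 76.8% and 77.9%. The highest mean level among clusters of at least 10 sites was on chromosome 18 at 44547075 to 44561631, where 88 sites stood at 89.9%, 91.1%, 77.9% and 80.3%. On chromosome 18 at 112134 to 112529, one of the deepest clusters with a mean of 1991 reads, 65 sites within 396 bp stood at 67.9%, 69.0%, 42.0% and 46.4%. Taking each site's mean over the 4 libraries, the widest spread among sites of clusters of at least 10 was on chromosome 19 at 1816447 to 1818825, with an SD of 31.1 points over 29 sites.

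High-coverage sites were less methylated on average than the other cytosines in each of the 4 libraries. Their mean level was 54.6 ± 29.9% in WT primed, 55.5 ± 29.8% in KO primed, 39.0 ± 24.6% in WT naive and 40.99 ± 24.9% in KO naive (SD over 9632 sites). The 386766 cytosines at 10 to 100 reads stood at 77.2%, 78.2%, 54.4% and 56.1%. The difference was -22.6, -22.7, -15.4 and -15.1 points, with a mean of -19.0 ± 4.28 points (SD, n = 4 libraries). It was negative in 4 of 4 libraries, and the exact two-sided sign-flip permutation test gave p = 0.13, the smallest that 4 libraries allow, so the design cannot pass 0.05.

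The difference did not belong to coverage above 100 reads in particular. Over bands of coverage, the WT primed mean was 81.8% at 10 to 20 reads, 77.6% at 20 to 30, 66.9% at 30 to 50 and 56.8% at 50 to 100. It was then 54.2% at 100 to 200 reads, 55.8% at 200 to 500, 57.4% at 500 to 1000 and 48.0% over 1000. Thus most of the decline was complete by 50 reads, and it showed the same shape in the other 3 libraries. Against the 17054 cytosines at 50 to 100 reads, a comparison added after seeing the data, the high-coverage sites differed by -1.63 points. Against the 29978 cytosines at 10 to 100 reads within 10 kb of a high-coverage site the difference was -10.9 points. The tables list no cytosine with 0 methylated reads, which raises low levels most where reads are few; with 10 reads drawn at every site the difference was -13.3 points. CpG density moved with coverage too: the median number of listed CpGs within 250 bp went from 7 at 10 to 20 reads to 21 over 500 reads. Matching on that number gave -18.0 points. Among sites with 1 to 10 listed CpGs within 250 bp, the 2778 high-coverage sites stood at 44.1% in WT primed and the others at 78.8%. At 31 to 40 CpGs they stood at 63.4% and 74.1%, but above 40 CpGs at 45.4% and 72.7%, so the gap did not narrow steadily with density.

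**Figure D2:**
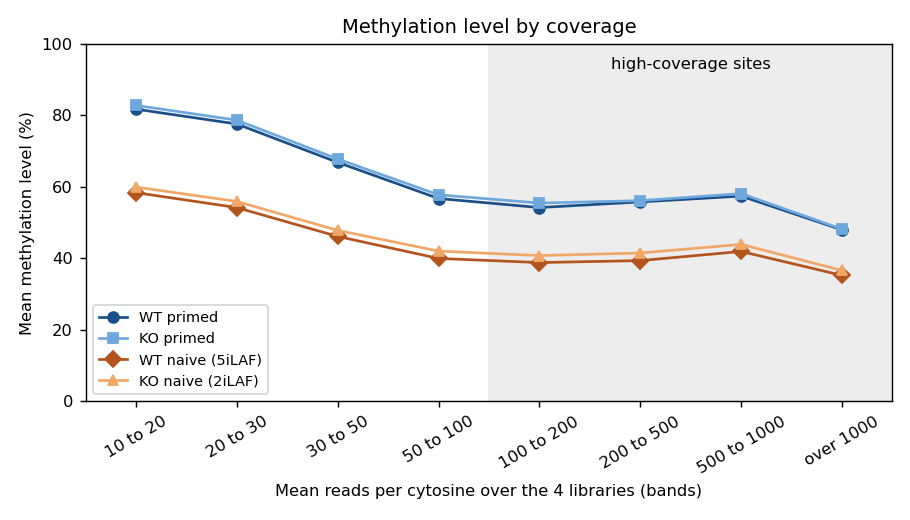
Mean methylation level in percent by band of mean reads per cytosine, for each of the 4 libraries, with the bands above 100 reads shaded. In WT primed the mean goes from 81.8% at 10 to 20 reads to 56.8% at 50 to 100 and stays near that up to 1000 reads, and the naive libraries run below the primed ones in every band.

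In the primed libraries levels were spread more widely at the high-coverage sites than at the others, with SDs of 29.9 against 25.7 points in WT. In the naive libraries they were not, at 24.6 against 26.6 points in WT and 24.9 against 24.7 in KO. At 50 to 100 reads alone the SD in WT primed was 29.1 points. High levels were less common at the high-coverage sites than at 10 to 100 reads in every library. In WT primed 28.1% of them stood at 80% or above (Wilson 95% interval 27.2 to 29.0%), against 62.0% of the cytosines at 10 to 100 reads. In KO primed the share was 29.5%, in WT naive 7.18% and in KO naive 7.93%. The cytosines at 50 to 100 reads were close to the high-coverage sites, at 30.1%, 30.9%, 7.28% and 7.44% in the library order used above. Wilson intervals cover counting error only. Levels of 20% or below were found at 17.0%, 16.3%, 25.8% and 24.2% of the sites in the library order used above. The middle range of 20 to 80% held 55.0% of the sites in WT primed and 67.0% in WT naive. Clusters accounted for much of this: among the 8312 sites in clusters of at least 5, 68.0% of the variance in WT primed and 70.6% in KO naive lay between clusters.

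Levels of single high-coverage sites were repeatable between strands and libraries. Of CpGs with a high-coverage site on both strands there were 1605, and the median difference between strands was 5.52 points in WT primed and 4.84 points in KO naive. The 27787 such CpGs at 10 to 100 reads differed by medians of 11.8 and 11.4 points. Across the 9632 sites Pearson's r was 0.965 between the primed libraries and 0.950 between the naive ones. Between states it was 0.857 in WT and 0.897 in KO. These are descriptions across sites that share libraries and clusters, and deeper sites have less counting error. Reads of the same strand that were not counted in the cytosine's context made up a mean of 1.67% at high-coverage sites in WT primed and 0.512% at 10 to 100 reads. The share was already 1.55% at 50 to 100 reads. Total coverage counts both strands, and the reads outside the context were 28.4% of it against 15.1%, of which 27.2 and 14.7 points were reads of the opposite strand. That difference, which is thus mostly coverage of the opposite strand, was 13.1 ± 0.40 points over the 4 libraries (exact two-sided sign-flip permutation test, p = 0.13).

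By chromosome, the mean level of the high-coverage sites was below that of the other cytosines on 22 of 22 autosomes in both primed libraries. The difference in WT primed ranged from -41.2 points on chromosome 13 to -5.27 on chromosome 4. In both naive libraries it was negative on 21 of 22, chromosome 19 being the exception at 4.05 points in WT naive and 3.46 in KO naive. Chromosomes 4, 18, 19 and 8 had the highest primed means, 71.8%, 71.4%, 69.0% and 68.0% in WT primed. They include large clusters at high level named above. Chromosome 13 had the lowest, 37.9% in WT primed and 24.9% in WT naive. On chromosome X, outside the rule, 548 of 14828 cytosines had a mean over 100 reads and stood at 60.2%, 57.8%, 47.1% and 44.3%.

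Naive cells had lower levels than primed cells at the high-coverage sites, by less than at the other cytosines. The mean naive minus primed difference was -15.5 points in WT and -14.5 in KO at the high-coverage sites, against -22.7 and -22.1 points at 10 to 100 reads. The gap between the 2 sets was 7.20 points in WT and 7.63 in KO, a mean of 7.42 ± 0.30 (SD, n = 2 pairs; exact two-sided sign-flip permutation test, p = 0.5, the smallest that 2 pairs allow). Against cytosines at 50 to 100 reads the gap was 1.24 points. Matching sites by their primed level in the other genotype left 2.45 points, with 1.31 in WT and 3.58 in KO. Among sites at 60 to 70% in KO primed, the WT difference was -24.7 points at high coverage and -24.1 at 10 to 100 reads. Their WT primed means were 63.4% and 70.0%, so the 2 sets were not at equal primed level within a bin. Sites at 90 to 100% in the other genotype differed by -19.9 and -25.5 points in WT, and by -16.3 and -23.6 points in KO. In both genotypes the gap within a bin was thus widest in the most methylated bin. On 22 of 22 autosomes the naive mean was below the primed mean in both genotypes, from -24.6 points on chromosome 21 to -7.03 on chromosome 5 in WT.

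Counts of single cytosines came from Fisher's exact test on reads with Benjamini-Hochberg adjustment over all 396398 cytosines, with calls at 25 points or more and an adjusted p below 0.05. The test compares 2 libraries, not 2 conditions. Between WT naive and WT primed, 2405 high-coverage sites were lower in naive (24.97%), where 26.8 percent of all tested cytosines were called lower, and 18 were higher, where 0.828 percent of all were. Between KO naive and KO primed, 1901 sites were lower (19.7%) against 27.5 percent of all, and 6 were higher against 0.394 percent. The shares of the high-coverage sites were thus near or below the background although more reads make a call easier. The median difference was -13.6 points in WT and -12.7 in KO at the high-coverage sites, and -20.7 and -20.2 points over all tested cytosines. By size alone, 44.1 percent of all cytosines in WT and 41.5 percent in KO were lower by 25 points or more. Among the high-coverage sites every one that passed 25 points in these comparisons also passed the test. The WT and KO comparisons share no library, and 1424 sites were called lower in both, 59.2% of those called in WT and 74.9% of those called in KO. Over all tested cytosines 51357 were called lower in both, 48.3% of the WT calls and 47.04% of the KO calls; the deeper sites have less counting error.

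Clusters of at least 5 sites were counted by a rule of size with no p-value: a mean difference of at least 25 points with at least 80% of the sites moving that way. Of 445 such clusters, 84 were lower in WT naive than in WT primed (18.9%), where 38.4 percent of all clusters, those of the cytosines at 10 to 100 reads included, met the rule. In KO 55 were lower (12.4%) against 36.5 percent. No cluster was higher in naive by this rule, where 0.168 percent of all clusters in WT and 0.0652 percent in KO were. In both genotypes 48 clusters were lower, 57.1% of those in WT and 87.3% of those in KO, where over all clusters the shares were 60.9% and 63.9%. Among the 229 clusters of at least 10 sites the naive mean was the lower one in 211 in WT and 218 in KO. The median difference was -14.8 points in WT and -13.3 in KO.

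**Figure D3:**
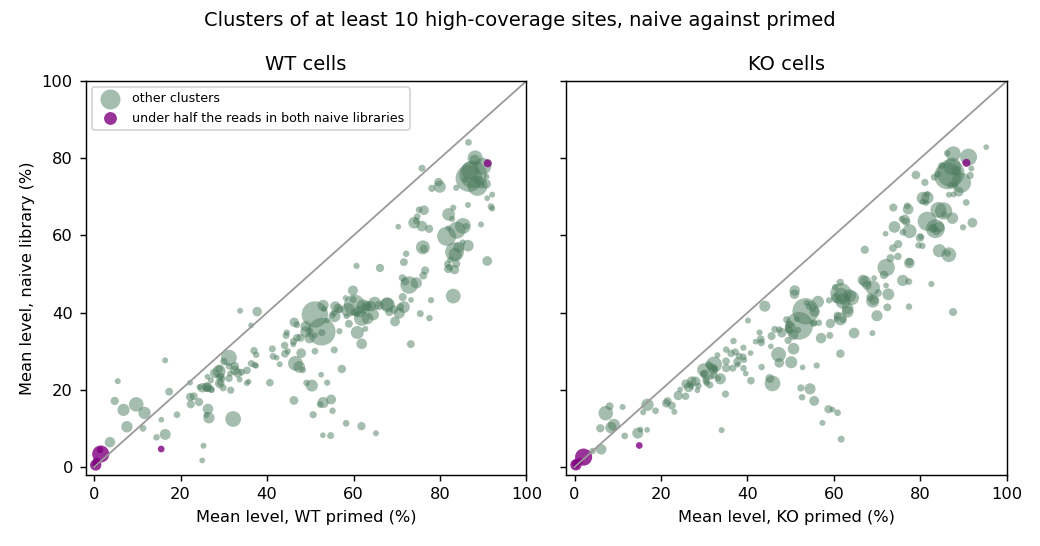
Mean level of each of the 229 clusters of at least 10 high-coverage sites in the primed library (x axis, percent) and in the naive library (y axis, percent), for WT and KO cells, with point area set by the number of sites and a line where both are equal. Most points lie below the line (211 in WT and 218 in KO), and purple points are clusters with under 0.5 times the relative reads in both naive libraries.

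Among clusters of at least 10 sites, the 3 largest decreases in WT naive were at short clusters of intermediate primed level. On chromosome 8 at 127817513 to 127817659, 11 sites stood at 65.2 ± 12.4% in WT primed and 57.3 ± 10.4% in KO primed, but at 8.75 ± 2.60% in WT naive and 11.4 ± 4.41% in KO naive. On chromosome 4 at 11237057 to 11237230, 21 sites stood at 61.8%, 58.7%, 10.6% and 14.998%. On chromosome 10 at 15963439 to 15963599, 14 sites stood at 58.3%, 60.8%, 11.3% and 14.1%. In each of these 3 clusters the primed and naive libraries were separated by more than 40 points in both genotypes, with no overlap. The largest KO difference among clusters of that size, -54.4 points, was on chromosome 17 at 41466175 to 41466475, the cluster that holds the placed LINC00910 promoter. Its 15 sites stood at 54.7%, 61.7%, 8.16% and 7.23%. The next largest in KO, -47.4 points, started from a high level. It was on chromosome 9 at 69381127 to 69381376, with 87.6% in KO primed and 40.2% in KO naive. In WT the difference there was -27.3 points.

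A few clusters had higher levels in naive cells, and those with the largest differences had low primed levels. On chromosome 1 at 161450315 to 161450547, close to the cluster among transfer RNA genes, 11 sites stood at 5.46% in WT primed, 11.1% in KO primed, 22.2% in WT naive and 15.6% in KO naive. On chromosome 7 at 64601642 to 64604635, 21 sites stood at 4.76%, 5.96%, 17.1% and 10.05%. On chromosome 9 at 117242 to 118699, where the FOXD4 promoter was placed, 65 sites stood at 9.74%, 7.22%, 16.2% and 13.97%. The FOXD4 window itself held 4 high-coverage sites, at 20.4%, 12.3%, 32.1% and 27.6%. FOXD4 encodes a forkhead transcription factor with several close relatives on chromosome 9. Of the clusters of at least 10 sites, 18 were higher in naive in WT and 11 in KO, and those 11 were among the 18. Levels near 0 are raised by the missing unmethylated cytosines, more so where reads are few. The named clusters on chromosomes 1, 7 and 9 had means of 153.95 to 182.9 reads per site in WT primed. In WT naive their means were 89.46 to 176.3 reads. Whether the missing cytosines have a part in the higher naive levels was not tested.

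The placed promoters covered the whole range of responses. In the LINC01596 window, the tandem repeat shown above, 12 sites stood at 87.0 ± 7.21% in WT primed, 86.0 ± 6.05% in KO primed, 85.3 ± 8.30% in WT naive and 79.2 ± 6.54% in KO naive. Its site ranges overlapped in the 4 libraries (77.8 to 97.2% in WT primed and 72.0 to 94.9% in WT naive). The LINC00910 window was the opposite case. Its 10 sites stood at 57.8 ± 18.7%, 64.8 ± 18.4%, 8.30 ± 5.83% and 7.50 ± 4.37%, and the lowest primed site, at 28.4%, was above the highest naive site, at 23.6%. The near-identical promoters of chromosome 7 had near-equal levels. LOC124901652 with 34 sites stood at 86.7%, 86.4%, 64.2% and 66.4%. The LOC401357 placement with 27 sites stood at 88.0%, 89.8%, 62.9% and 67.9%, and the other placement, with 9 sites, at 84.7%, 89.7%, 64.7% and 69.8%. Since these sequences are nearly the same, their reads may not be assigned to the right copy, and the 3 windows are not independent.

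Other placed windows had lower naive levels or low levels throughout. LERFS on chromosome 9, a long noncoding RNA gene, had 10 sites at 74.3%, 74.3%, 32.0% and 45.6%. LOC107984035 on chromosome 9 had 11 sites at 87.7%, 88.4%, 67.4% and 71.5%. The 20 sites of the larger LOC105377824 placement on chromosome 17 stood at 87.9%, 87.1%, 62.3% and 65.6%. The CpG-rich MIR663AHG promoter, host gene of a microRNA beside the centromere of chromosome 20, had low levels everywhere: 7.02 ± 2.26%, 10.1 ± 3.64%, 12.3 ± 4.31% and 15.4 ± 4.05% over 26 sites. LINC00933 on chromosome 15 was similarly low, with 8 sites at 5.98%, 6.06%, 9.84% and 6.45%. USP6 on chromosome 17, a deubiquitinase gene, had 4 sites whose levels differed widely among themselves (12.5 to 86.6% in WT primed) and stood at 65.6%, 65.0%, 63.7% and 60.8%.

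**Figure D4:**
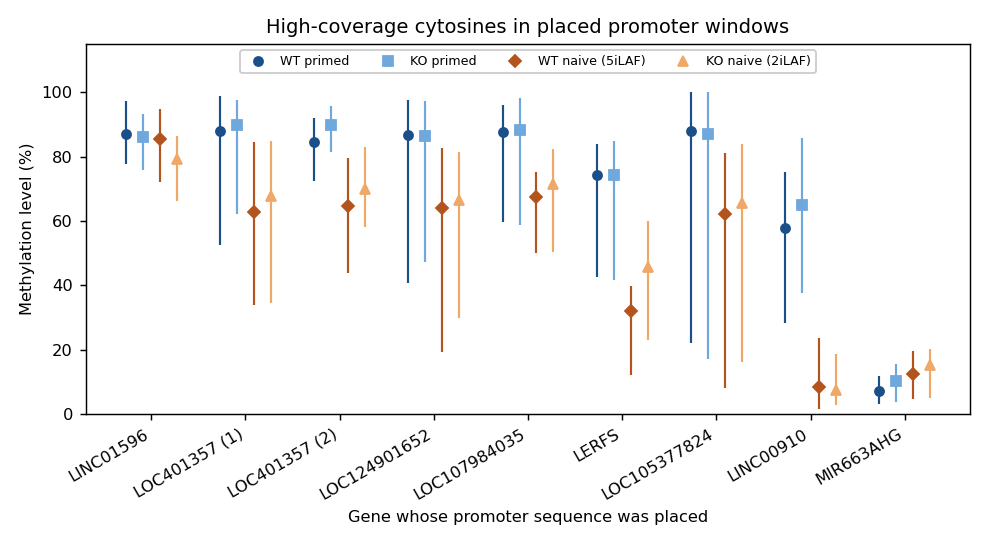
Methylation level in percent of the high-coverage cytosines in placed promoter windows with at least 9 such sites, where symbols give the mean and vertical lines the lowest and highest site in each of the 4 libraries, and LOC401357 appears at both of its placements. The LINC01596 mean stays at 79.2% or above in all libraries. The LINC00910 mean goes from 57.8 to 8.30% in WT, and the MIR663AHG mean is at or under 15.4% in all.

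The single cytosines of greatest depth were almost unmethylated and had far fewer reads in the naive libraries. This did not hold for deep sites in general: the 449 sites over 1000 reads averaged 48.0% in WT primed, and the clusters on chromosomes 3 and 18 named above stood at 52.6% and 67.9% with over 1000 reads. The 5 cytosines of highest coverage, 4 on chromosome 11 and 1 on chromosome 1, had means of 9555 to 9700.5 reads. The first, at 10531092 on the minus strand of chromosome 11, had 14413 reads in WT primed, 17142 in KO primed, 2343 in WT naive and 4904 in KO naive. Its level was 0.243% in WT primed (Wilson 95% interval 0.175 to 0.338%), 0.228% in KO primed, 0.598% in WT naive and 0.245% in KO naive. These levels lie under the 1% that a conversion of 99% would leave on unmethylated DNA. They stand beside primed means of over 50% for all high-coverage sites.

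Read depth was compared between libraries after dividing by the reads at the cytosines of 10 to 100 reads. In 18 clusters with 255 sites the naive library held under 0.5 times the primed library's relative reads in both genotypes, a selection on coverage made after seeing the data. These clusters fell into 2 ranges with a space between. In 14 of them, on 11 chromosomes, the ratio was 0.144 to 0.259 in WT and 0.189 to 0.344 in KO. Their 207 sites took 6.60% of the reads of all measured cytosines in WT primed, 6.62% in KO primed, 1.12% in WT naive and 1.56% in KO naive. Pooled over reads, 0.577% were methylated in WT primed, 0.556% in KO primed, 1.29% in WT naive and 0.967% in KO naive. In 9 of the 14 clusters, with 194 sites, the mean level was under 5% in every library. Over all 14, cluster means reached 8.25% in primed and 37.9% in naive libraries. The latter was in WT naive at a cluster of 2 sites on chromosome 10. Over all 229 clusters of at least 10 sites the median ratio was 0.967 in WT and 0.893 in KO.

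The 5 clusters of at least 10 sites among these 14 were close to each other in ratio though not in depth. On chromosome 11 at 10530869 to 10531190, 11 sites had 7143 reads on average, ratios of 0.16 and 0.21, and levels of 0.235%, 0.296%, 0.645% and 0.348%. On chromosome 5 at 79946787 to 79947149, 20 sites had 4072 reads and ratios of 0.16 and 0.22. On chromosome 1 at 564472 to 567714, 39 sites had 3837 reads, ratios of 0.16 and 0.20, and levels of 0.360%, 0.317%, 0.533% and 0.568%. On chromosome 5 at 99386390 to 99390262, 90 sites had 1473 reads, ratios of 0.16 and 0.24, and levels of 1.52%, 2.09%, 3.38% and 2.58%. On chromosome 17 at 22021597 to 22023528, 13 sites had 657 reads and ratios of 0.14 and 0.24. These 5 were the only clusters of at least 10 sites under 5% in every library. From general knowledge, nuclear copies of mitochondrial DNA lie in hg19 at several of these places, and the MTRNR2L genes derive from such copies. RefSeq lists MTRNR2L genes on 12 chromosomes, with 1 each on chromosomes 5, 11 and 17. The mitochondrial chromosome is not among the chromosomes of the tables used here. Whether these reads come from mitochondrial DNA was not tested.

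The other 4 of the 18 clusters were of another kind. Their ratios were 0.415 to 0.464 in WT and 0.454 to 0.495 in KO, and their primed levels went from 14.97 to 93.9%. One lay on chromosome 1 at 529822 to 534113, with 20 sites at 91.1%, 90.6%, 78.7% and 78.8%. Another, on chromosome 2 at 114341011 to 114342684, had 14 sites at 15.5%, 14.97%, 4.68% and 5.59%. The remaining clusters were on chromosome 9 at 11324 to 11522 and on chromosome 16 at 90241611 to 90241669, each at the outer end of its chromosome. Without all 18 clusters, the level difference between high-coverage sites and the others was -18.0 points, and the gap in naive minus primed was 7.05 points.

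**Figure D5:**
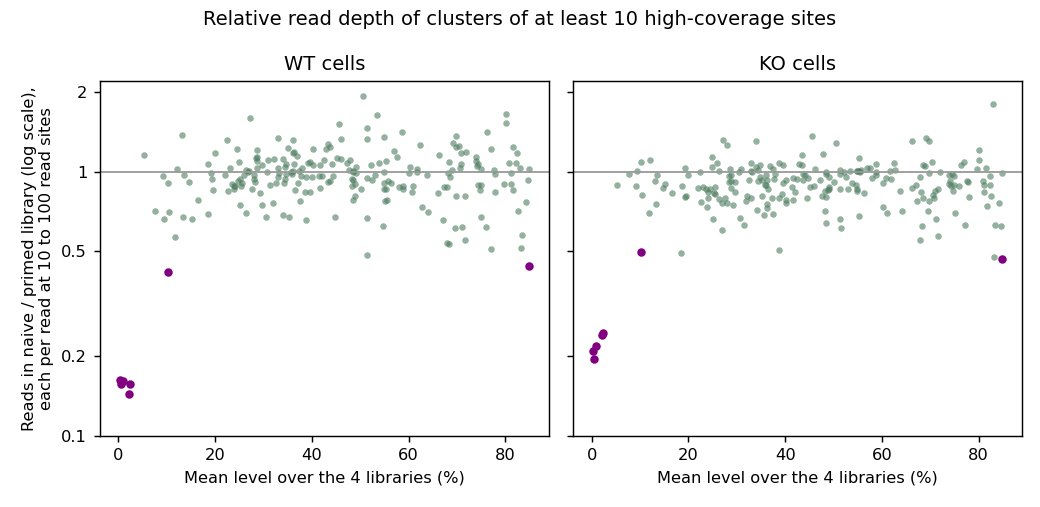
For each cluster of at least 10 high-coverage sites, the ratio of relative reads in the naive library to the primed library (y axis, log scale) against its mean level over the 4 libraries (x axis, percent), for WT and KO cells. The 5 purple points at the lower left have ratios of 0.14 to 0.16 in WT and 0.20 to 0.24 in KO, and the other clusters lie mostly between 0.5 and 2.

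KO and WT libraries of the same state were alike at most high-coverage sites. The mean KO minus WT difference was 0.938 points in primed and 1.98 points in naive. By Fisher's exact test with Benjamini-Hochberg adjustment, 90 sites were higher in KO primed (0.934%), where 0.566 percent of all cytosines were called higher. That share was above the background, and at 50 to 100 reads it was 1.47%. In KO primed 14 sites were lower (0.145%), against 0.287 percent. Between the naive libraries 63 were higher (0.654%), against 0.908 percent of all, and 9 were lower (0.0934%), against 0.496 percent. By the rule of size, 1 of 445 clusters was higher in KO primed, where 0.41 percent of all clusters were, and none was lower, against 0.196 percent. Between the naive libraries none was higher or lower, against 1.15 and 0.461 percent. With 1 library each, the spread between cultures of 1 genotype is not known.

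The cluster that met the rule lay on chromosome 1 at 149223339 to 149224243, in a region rich in segmental duplications. Its 34 sites stood at 26.3 ± 12.3% in WT primed, 57.0 ± 14.2% in KO primed, 15.1 ± 5.90% in WT naive and 33.4 ± 10.7% in KO naive. All 34 were higher in KO in both states, and the mean difference was 30.7 points in primed and 18.3 in naive, which share no library. Of the 90 sites called higher in KO primed, 23 lay in this cluster and 50 on chromosome 1. The 175 cytosines at 10 to 100 reads within 10 kb stood at 45.1% in WT primed, 56.3% in KO primed, 26.7% in WT naive and 34.5% in KO naive, so the surrounding sequence differed in the same direction by less. Its relative reads in KO were 0.79 times those in WT in primed and 0.89 times in naive, and the part of depth in the level difference was not tested. On chromosome 1 without this cluster the mean KO minus WT difference was 2.31 points in primed, against 0.559 points on the other autosomes together. In naive the values were closer, 2.48 against 1.82 points.

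Further differences between KO and WT were smaller or held in 1 state. On chromosome 1 at 148848430 to 148854092, 34 sites stood at 63.1%, 77.4%, 41.7% and 52.9%, higher in KO in both states. On chromosome 9 at 69381127 to 69381376, 20 sites stood at 71.4% and 87.6% in the primed libraries but 44.0% and 40.2% in the naive ones. On chromosome 9 at 70646347 to 70646545, 20 sites stood at 76.6% and 73.7% in the primed libraries and at 50.9% and 67.2% in the naive ones. In the other direction, 13 sites on chromosome 9 at 44858878 to 44858996 stood at 48.3% in WT primed and 35.1% in KO primed, but at 25.1% in WT naive and 30.4% in KO naive. The sign of the difference thus changed between states at 3 of these 4 clusters. Of others named for such differences, it changed on chromosome 2 at 107082329 to 107082421 and chromosome 7 at 72329924 to 72330194. It stayed the same on chromosome 2 at 88316577 to 88316732, with -10.3 points in primed and -3.55 in naive. So it did on chromosome 9 at 69200243 to 69200489 (-9.23, -3.78) and at 62940 to 72934 (-0.555, -13.5). On chromosome 17 at 20771879 to 20771987 it also stayed the same (2.55, 13.7). Whether a change of sign exceeds the spread between cultures was not tested.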

How the data were processed

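Bisulfite capture libraries of H9 cells were sequenced, 1 per group, and the labels' protocols state a conversion of 99% from spiked-in unmethylated phage DNA. Per the submitters' processing notes, positions are in hg19 (GRCh37). Aligner, caller and duplicate handling were not given in the sources used here. For each library a table with 1 line per cytosine and strand was deposited by the authors. Per the file headers, total, context and methylated coverage are read counts. Strand coverage was treated here as a signal in reads. The methylation level the authors deposited is a fraction, which equalled methylated over context coverage to within 5e-07. No table held a cytosine with 0 methylated reads. The tables list 2020444 to 2342243 cytosines with 24128734 to 41016760 context reads and medians of 7 to 13 reads per library.

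High-coverage sites, clusters (neighbours at most 10 kb apart), tests and the rule naming clusters were chosen with earlier results of these data known. The named clusters are the 10 with most sites, the 5 deepest, the 3 largest decreases and increases per comparison, and the 3 highest and lowest levels, largest SDs and most repeated spacings. Other clusters and promoters in the text were chosen after their values were seen. Each cytosine had equal weight in mean levels. Tests were exact two-sided sign-flip permutation tests over 4 libraries or 2 pairs, and Fisher's exact test per cytosine with Benjamini-Hochberg adjustment; the latter was tested on simulated data. The non-context share was planned on total coverage, which counts both strands, so a same-strand share was added. Alternatives were other coverage thresholds, comparison sites, weights, drawn reads, positions, cluster definitions and sizes of difference. Added after seeing the data were comparison sites at 50 to 100 reads or within 10 kb, matching on CpG density or primed level, leaving out the 18 clusters with fewer naive reads, and the promoter placement. RefSeq sequences are of GRCh38.p14, and no coordinates were converted. Python 3.11.15, numpy 2.4.6, pandas 2.3.3, scipy 1.17.1, numba 0.67.0 and matplotlib 3.10.9 were used.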

Additional observations from a re-analysis of the deposited data

Results flagged for a closer look

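At 3 of the clusters of at least 10 sites with the largest changes, the naive minus primed difference had opposite signs in WT and KO. These 3 were named for the largest decreases from WT naive to KO naive. That value enters the difference between genotypes, so the choice itself favours a negative one. Each value came from 1 library per group, and the difference between genotypes was not tested. On chromosome 9 at 62940 to 72934 it was 11.2 points in WT and -1.68 in KO, a difference of -12.9 points. On chromosome 2 at 107082329 to 107082421 it was 6.72 and -11.5 points, a difference of -18.2. On chromosome 7 at 72329924 to 72330194 it was 0.417 and -11.2 points, a difference of -11.6. The WT mean barely moved there, and 60% of the 10 sites were lower in WT naive, as were all of them in KO naive.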

How the results depend on the processing

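The level difference, the gap in naive minus primed and the non-context share kept their direction under all alternatives run, with the level difference between -29.1 (clusters weighted equally) and -1.63 points (sites at 50 to 100 reads). It was -9.06 points at a minimum of 20 reads and -7.73 against sites at 30 to 100 reads. The gap was 4.52 and 4.33 points there, 16.4 weighted by reads, and 0.679 with bins of primed level against 50 to 100 reads. The non-context difference was 6.62 points at a minimum of 20 reads, 5.54 against 30 to 100 reads, 1.16 on the same strand and 0.124 on the same strand against 50 to 100 reads. Their p-values cannot pass 0.05, so they say nothing about stability.

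Counts of calls depended on the rule. Fisher calls in both directions went from 2423 to 252 at 50 points, 879 over 200 reads and 80 with 10 reads drawn for WT naive against primed, and from 1907 to 135, 618 and 60 for KO. Only 3603 sites have over 200 reads, so the shares there, 24.4% in WT and 17.2% in KO, were near those of all 9632 sites, 25.2% and 19.8%. For KO against WT they went from 104 to 3, 2 and 0 in primed and from 72 to 0, 2 and 0 in naive. Cluster calls went from 84 to 53 with at least 10 sites, 2 at 50 points and 35 over 200 reads in WT, and from 55 to 31, 2 and 18 in KO. The clusters tested were 445, 229, 445 and 161, so the WT share was 18.9% at first, 23.1% with at least 10 sites and 21.7% over 200 reads. The 1 cluster higher in KO primed did not reach 50 points (0 called), and it has no site over 200 reads, so it was not tested there (0 called). No paired analysis was possible because the labels carry no replicate numbers, apart from the test over 2 pairs formed by genotype that the naive minus primed gap rests on.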
